A study of Mus musculus with 15 samples.

Results

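The integrins, cadherins, catenins, nectins and claudins are the cell surface proteins, with their cytoplasmic partners, that hold a cell to its matrix and to its neighbours. They were followed here in cumulus cells, the follicle cells that lie around the mouse oocyte. A gene was a member when the symbol of a probe in the authors' table began as an integrin alpha or beta chain, a numbered cadherin, a numbered claudin, a catenin of the alpha, beta or delta group, or a nectin (Pvrl). Genes for integrin-binding proteins were left out, and the probe with the highest mean over the 15 arrays stood for a gene with several probes. This gave 42 genes (18 integrin chains, 9 cadherins, 8 claudins, 4 catenins and 3 nectins) of the 15059 gene symbols in that table. Within the table the symbol alone set membership, but the members were chosen with earlier results of these data known. The table held 20855 gene probes of the 39429 on the array. Of those on the array, 20844 were well above background in most arrays of at least 1 stage. A table filtered in that way lets in a gene that is high in only 1 stage. The array calls the nectins Pvrl1, Pvrl2 and Pvrl3, which RefSeq lists as Nectin1, Nectin2 and Nectin3.

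All 15 arrays came from B6CBAF1/J mice, in 3 stages of 5 arrays each. NC1 cells surrounded prophase I oocytes of 3-week-old juveniles, which could resume meiosis but were not developmentally competent. C1 cells surrounded competent prophase I oocytes of 8-week-old adults, and C2 cells surrounded fully competent metaphase II oocytes ovulated by 8-week-old adults after superovulation (PMSG followed by hCG). NC1 and C1 complexes were unexpanded, were taken from punctured follicles and had their cells stripped by pipetting, whereas C2 complexes were expanded, were taken from the oviduct and were dispersed with hyaluronidase. Each array held cells pooled from a separate group of mice. Stage cannot be told apart from age between NC1 and C1, and between C1 and C2 it cannot be told apart from the hormones given, the place of collection or the enzyme used.

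Integrins are pairs of one alpha and one beta chain that grip matrix proteins such as fibronectin, laminin and collagen outside the cell and actin through adaptor proteins inside it. Cadherins and nectins join neighbouring cells at adherens junctions, where catenins and other scaffolds tie them to actin, and claudins form the strands of tight junctions. In the preovulatory follicle the luteinizing hormone surge makes the compact cumulus secrete a hyaluronan matrix and spread apart, so that cell contacts and matrix contacts are both rebuilt before ovulation.

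Values are log2 intensities relative to the median of each array, so a value compares arrays for 1 probe and not 1 probe with another. A member was tested only if at least 4 of 5 arrays in each stage read its probe well above background, which 31 of the 42 members were (15 integrins, 6 cadherins, 4 claudins, 3 catenins and 3 nectins). A change was called at an adjusted p under 0.01 by limma over all 17323 probes that passed the same filter. In these arrays less RNA of a gene per cell and fewer cells of a type that carries it cannot be told apart.

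The 8 granulosa genes on a list of cell type markers (among them Foxl2, Amhr2 and Inha) were measured above background in every stage, and 6 of the 8 were lower at C2 than at C1. Oocyte genes split the C2 arrays. The log2 summed level of 10 oocyte markers was 3.74 to 5.68 at NC1, 3.76 to 5.38 at C1 and 3.74 to 3.96 in C2 arrays 1 to 3, but -0.56 and -0.35 in C2 arrays 4 and 5. Calls that changed when either set of C2 arrays was left out are named with the member. Markers of theca and stroma summed to 3.48 to 5.73 in NC1, 3.31 to 4.04 in C1 and -1.02 to -0.46 in C2, and all 5 of its tested genes were lower at C2. Leukocyte markers summed to -0.21 to 0.59, 0.59 to 1.35 and 2.23 to 2.86, and endothelial markers to 1.06 to 2.10, 1.78 to 2.93 and -0.22 to 1.31. The part of these cell types in the results was not tested.

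Adhesion genes changed in both directions between C1 and C2. At C2 against C1, 19 of the 31 tested members passed the test, 9 higher and 10 lower, where 47.6% of all tested probes passed (25.4% higher and 22.2% lower). Itgb3 (8.65-fold) and Itga5 (4.85-fold) rose while Itga6 (4.03-fold) and Itgav (2.69-fold) fell, and Pvrl1 fell 8.32-fold while Pvrl2 and Pvrl3 rose. Second probes of Itgav and Pvrl2 were not called at C2 against C1. The arrays of C1 and C2 did not overlap for 16 of the 31 members, against 43.9% of all tested probes. At C1 against NC1 only 2 of 31 members passed, Itga7 lower and Pvrl2 higher, where 2.52% of all tested probes passed (1.75% higher and 0.768% lower). The arrays of NC1 and C1 did not overlap for 5 members (Itga7, Itgav, Itgb5, Itga5 and Pvrl2), against 5.98% of all tested probes.

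Between C2 and NC1 directly, 19 of 31 members passed (8 higher and 11 lower), where 51.5% of all tested probes passed (26.5% higher and 24.9% lower), and 19 members did not overlap, against 48.9% of all tested probes. Over the 3 stages together the moderated F-test called 21 of 31 members, against 51.6% of all tested probes. The comparisons share arrays, so their counts are not independent. Within the 4 slides, each of which held arrays of all 3 stages, 18 of the 19 members called at C2 against C1 kept one sign, Itga1 being the exception, and so did both members called at C1 against NC1. Of the 31 members, 20 passed in at least 1 of the 2 successive steps and 1, Pvrl2, passed in both. The median change of the tested members was -0.05 at C1 against NC1, beside -0.03 over all tested probes, and -0.15 at C2 against C1, beside 0.02. Scaled on the spike-in probes instead, 12 members passed at C2 against C1, 4 of them higher, and that scaling moved the median of all tested probes to -0.10.

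**Figure D1:**
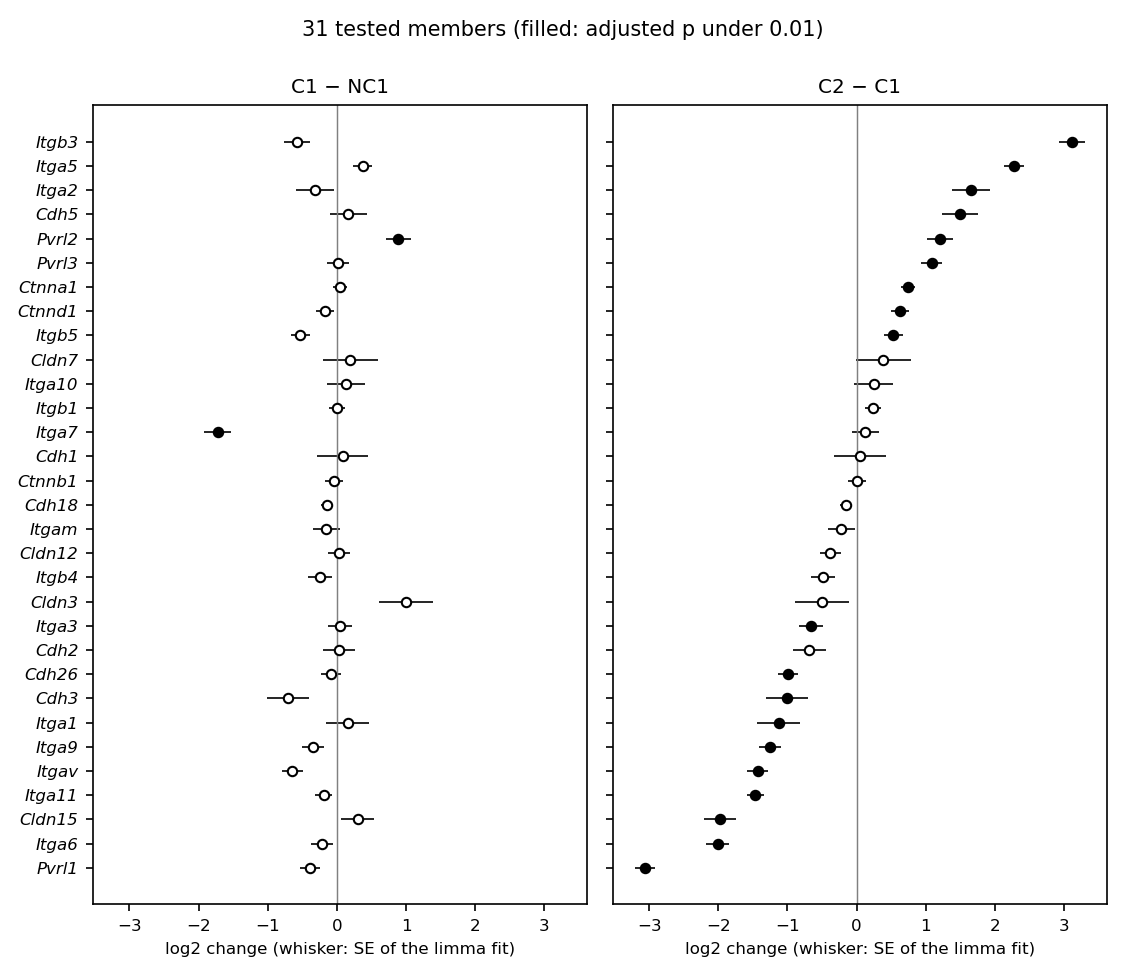
log2 change of each of the 31 tested members at C1 against NC1 (left) and C2 against C1 (right), in order of the second, with the SE of the limma fit as whiskers; filled points passed at an adjusted p under 0.01. The left panel holds 2 filled points (Itga7 and Pvrl2) and the right panel 19, from Pvrl1 at -3.06 to Itgb3 at 3.11.

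To show promoters of members with opposite changes, 6 were picked after their values were seen. On the probe that stood for each, 3 rose at C2 against C1 (Itga5, Itga2 and Pvrl2) and 3 fell (Itgav, Cldn15 and Itga11). Second probes of Pvrl2 and Itgav were not called in that comparison. Each of the 6 members had a single start in the RefSeq promoter table of build GRCm38.p6. The 250 bases before that start are printed 5′ to 3′ on the strand of the gene. Capitals mark matches, on either strand, to 5 motifs: TGACGT (the core of a cAMP response element, the element that carries much of the luteinizing hormone signal), TGANTCA (AP-1), CAAGGTC (the site of the granulosa receptor NR5A1), GGGCGG (the GC box) and CAGGTG (the E-box bound by Snail factors, known repressors of cadherin genes).
Itga5 (chr15:103366792-103367041, minus strand): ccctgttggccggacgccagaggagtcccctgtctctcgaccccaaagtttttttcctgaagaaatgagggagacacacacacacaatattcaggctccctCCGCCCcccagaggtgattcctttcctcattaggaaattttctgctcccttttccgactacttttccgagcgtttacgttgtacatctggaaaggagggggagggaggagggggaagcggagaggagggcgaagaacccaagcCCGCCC
Itga2 (chr13:114932101-114932350, minus strand): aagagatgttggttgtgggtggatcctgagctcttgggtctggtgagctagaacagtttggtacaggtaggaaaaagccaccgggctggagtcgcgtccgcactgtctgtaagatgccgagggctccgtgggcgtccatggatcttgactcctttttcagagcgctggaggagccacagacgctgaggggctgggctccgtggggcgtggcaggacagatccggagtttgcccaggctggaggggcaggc
Pvrl2 (chr7:19749574-19749823, minus strand): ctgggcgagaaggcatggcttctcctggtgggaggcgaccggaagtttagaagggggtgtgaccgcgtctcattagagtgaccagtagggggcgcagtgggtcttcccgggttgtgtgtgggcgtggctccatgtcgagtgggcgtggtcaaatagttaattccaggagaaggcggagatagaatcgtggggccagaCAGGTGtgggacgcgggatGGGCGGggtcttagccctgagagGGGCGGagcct
Itgav (chr2:83724147-83724396, plus strand): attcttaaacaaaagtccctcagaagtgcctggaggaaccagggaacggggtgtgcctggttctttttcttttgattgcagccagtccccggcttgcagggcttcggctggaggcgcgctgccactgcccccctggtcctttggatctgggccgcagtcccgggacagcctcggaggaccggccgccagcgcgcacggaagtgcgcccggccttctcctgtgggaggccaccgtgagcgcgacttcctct
Cldn15 (chr5:136967619-136967868, plus strand): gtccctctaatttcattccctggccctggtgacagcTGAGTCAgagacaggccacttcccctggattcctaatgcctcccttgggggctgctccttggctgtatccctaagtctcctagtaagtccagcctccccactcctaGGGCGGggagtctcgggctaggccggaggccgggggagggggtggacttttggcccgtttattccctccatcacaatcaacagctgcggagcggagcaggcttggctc
Itga11 (chr9:62677605-62677854, plus strand): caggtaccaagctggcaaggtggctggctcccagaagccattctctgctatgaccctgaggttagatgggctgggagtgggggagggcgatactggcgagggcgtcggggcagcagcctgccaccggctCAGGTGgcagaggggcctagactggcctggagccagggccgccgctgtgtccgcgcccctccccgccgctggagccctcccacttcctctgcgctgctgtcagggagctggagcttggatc

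The GC box was found in Itga5 (2 matches), Pvrl2 (2 matches) and Cldn15 (1 match), and 32.7% of all 32851 promoters in the table held it in the same window. The Snail-type E-box was found once in Pvrl2, which rose on the probe that stood for it, and once in Itga11, which fell. Of all promoters 17.2% held it. Cldn15 alone of the 6 held an AP-1 match (6.75% of all promoters). None of the 6 windows held the cAMP core (6.47% of all promoters) or the NR5A1 site (3.32%). Of the 42 members 27 had an entry in the promoter table.

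Among integrins that bind the RGD sequence of fibronectin, vitronectin and osteopontin, 4 of 5 members were tested, and 3 rose and 1 fell at C2 against C1. Over all tested probes 25.4% rose and 22.2% fell there. Itgb3 encodes the beta chain that pairs with alpha V, and with the alpha IIb chain in platelets. Itgb3 read 1.28, 1.19, 0.84, 1.23 and 1.15 in NC1 arrays 1 to 5, 0.63, 0.39, -0.18, 1.01 and 0.94 in the C1 arrays and 3.52, 3.85, 3.8, 3.47 and 3.72 in the C2 arrays. Every C2 array lay above every other array, and the log2 change at C2 against C1 was 3.11 ± 0.183 (SE, adjusted p = 6.35e-10). Within the 4 slides it ran from 2.65 to 3.70. Its second probe, not tested, was well above background in 0 of 5 NC1, 1 of 5 C1 and 5 of 5 C2 arrays. The 7 platelet markers summed to -2.34 to -1.20 in the C1 arrays and -0.85 to 0.31 in the C2 arrays. Of these only Pf4 was tested, and it was higher at C2 too, at 2.09 ± 0.353 (SE, adjusted p = 8.38e-05). The part of platelets in the Itgb3 result was not tested.

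Itga5, the alpha chain of the main fibronectin receptor, read -2.94, -3.06, -3.21, -2.91 and -3.13 in the NC1 arrays, -2.87, -2.84, -2.71, -2.19 and -2.78 in the C1 arrays and -0.79, -0.34, -0.16, -0.34 and -0.37 in the C2 arrays. The 3 stages did not overlap, and the C2 arrays stood well above the rest. The change was 2.28 ± 0.14 (SE, adjusted p = 1.02e-09) at C2 against C1, and 0.37 ± 0.14 (SE, adjusted p = 0.166), not called, at C1 against NC1.

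Itgav, the alpha chain that pairs with the beta 3 and beta 5 chains, went the other way. It read 2.15, 2.18, 2.70, 2.71 and 2.84 in the NC1 arrays, 1.56, 1.83, 1.92, 2.02 and 2.01 in the C1 arrays and 0.36, 0.53, 0.16, 0.43 and 0.73 in the C2 arrays. The stages were ordered without overlap, with a called change of -1.43 ± 0.153 (SE, adjusted p = 6.11e-07) in the second step and an uncalled -0.65 ± 0.153 (SE, adjusted p = 0.0181) in the first, which passed only when NC1 array 1 was left out. A second Itgav probe gave a smaller drop of -0.26 ± 0.199 (SE, adjusted p = 0.274) at C2 against C1, which was not called, and -0.75 ± 0.199 (SE, adjusted p = 0.00375) at C2 against NC1, which was. The probes disagreed on the size of the change at C2 against C1.

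Itgb5, another partner of alpha V, had its lowest mean in the adult prophase stage, with means of 5.43 ± 0.20 (SD, n = 5) in NC1, 4.90 ± 0.08 in C1 and 5.43 ± 0.33 in C2. The drop at C1 against NC1, -0.53 ± 0.142 (SE, adjusted p = 0.04), was not called, nor was it in any of 29 refits. The rise at C2 against C1 was 0.53 ± 0.142 (SE, adjusted p = 0.00396). The call was lost with the spike-in scaling (0.41, adjusted p = 0.317), with quantile normalization, with no filter on dim probes, without C1 array 3, without C2 array 4 and without C2 array 5, and leaving out C2 arrays 4 and 5, where oocyte genes were near background, brought the change to 0.31 (adjusted p = 0.0545). Itga8, the fifth RGD-binding chain, was read at -1.63, -2.53, -2.97, -3.39 and -2.94 in the NC1 arrays, -3.25, -3.20, -3.72, -3.02 and -3.46 in the C1 arrays and -6.90, -7.28, -6.53, -7.22 and -6.83 in the C2 arrays. Its probe was well above background in 5, 4 and 0 of 5 arrays, and NC1 was at least 4.29-fold higher than C2. That bound sets the NC1 mean against, for each C2 array, the lowest signal well above background there. With the normexp background the bound was 1.66 on the log2 scale, in place of 2.10. The probe met the limit of 4 of 5 arrays only at NC1 and C1, the stages where it was high.

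Itgb1, the beta chain shared by most matrix-binding alpha chains, did not pass in any comparison. Its arrays read 1.86, 1.70, 1.57, 1.61 and 2.05 in the NC1 arrays, 1.59, 1.97, 1.64, 1.86 and 1.74 in the C1 arrays and 1.99, 1.94, 1.89, 2.20 and 1.97 in the C2 arrays. The stages overlapped, and the change was 0.24 ± 0.113 (SE, adjusted p = 0.0812) at C2 against C1 and 0.00 ± 0.113 (SE, adjusted p = 0.999) at C1 against NC1. A second probe gave 0.16 ± 0.146 (SE, adjusted p = 0.375) at C2 against C1.

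**Figure D2:**
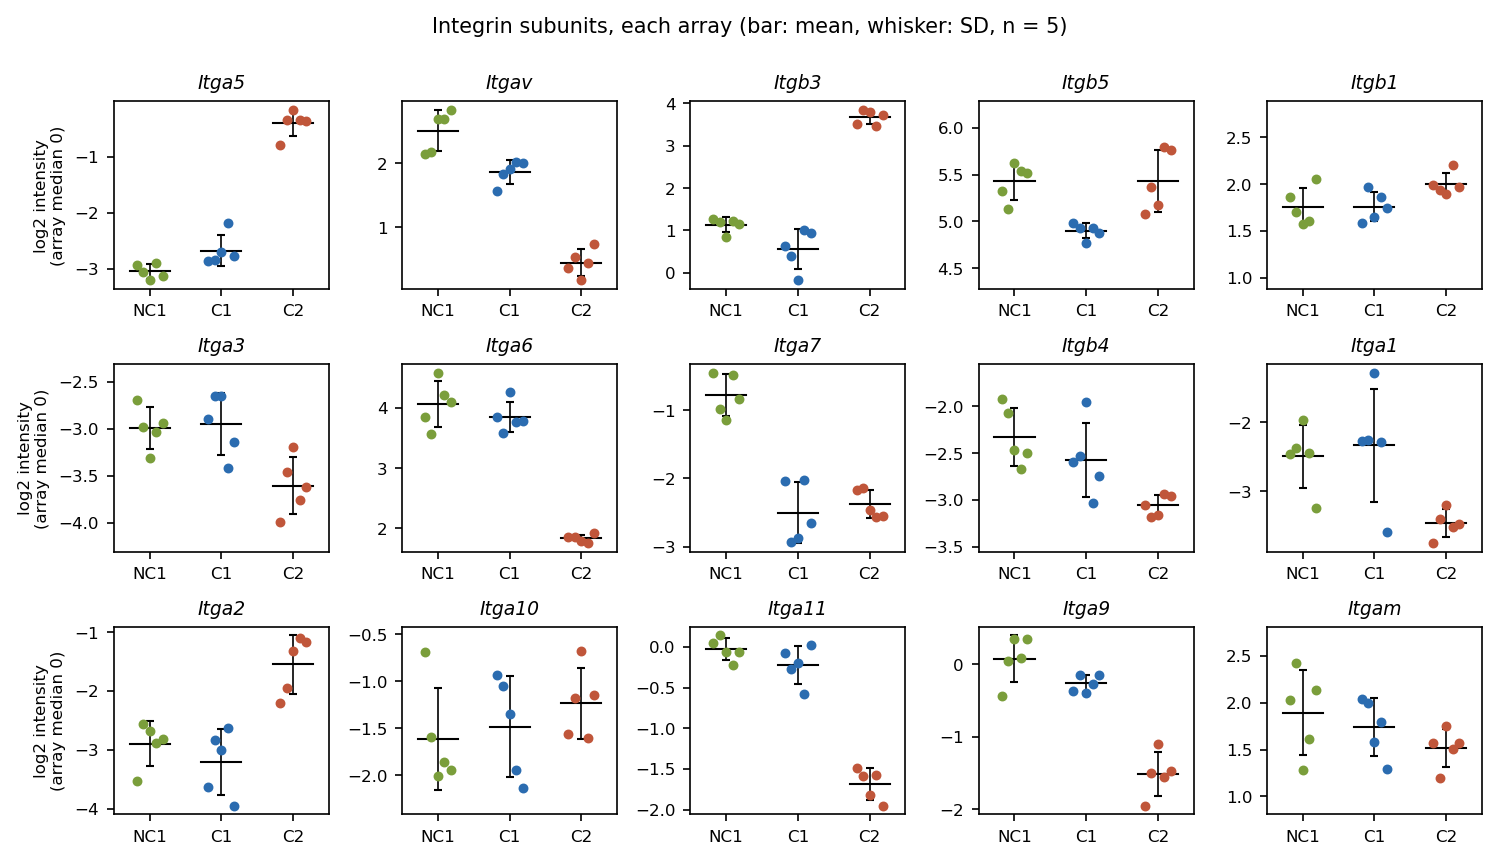
log2 intensity relative to the array median of the 15 tested integrin chains on each of the 15 arrays, with 1 point per array, a bar for the stage mean and a whisker for the SD (n = 5); each panel has its own axis. Itgb3 and Itga5 stand highest at C2, Itga6, Itga11, Itga9 and Itgav lowest at C2, and Itga7 highest at NC1.

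Laminin-binding chains fell or did not pass. Of 4 tested, 2 were lower at C2 than at C1 (Itga6 and Itga3), 1 was lower at C1 than at NC1 (Itga7), and all 4 were lower at C2 than at NC1. Over all tested probes 22.2%, 0.768% and 24.9% were lower in these comparisons, in that order. Itga6, which pairs with beta 1 or with beta 4, read 3.85, 3.56, 4.58, 4.22 and 4.10 in the NC1 arrays, 3.84, 3.58, 4.26, 3.76 and 3.79 in the C1 arrays and 1.85, 1.86, 1.79, 1.76 and 1.92 in the C2 arrays. The 5 C2 arrays lay close together and below every other array, and the change was -2.01 ± 0.162 (SE, adjusted p = 2.26e-08). 

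Itga7, a laminin receptor best known from muscle, was the 1 member lower at C1 than at NC1. Its arrays read -0.45, -0.99, -1.14, -0.48 and -0.83 in the NC1 arrays, -2.04, -2.93, -2.88, -2.03 and -2.65 in the C1 arrays and -2.17, -2.14, -2.46, -2.57 and -2.56 in the C2 arrays. NC1 stood above both adult stages, which overlapped each other. The change was -1.72 ± 0.195 (SE, adjusted p = 3.41e-05) at C1 against NC1, a 3.30-fold drop, and 0.13 ± 0.195 (SE, adjusted p = 0.598) at C2 against C1. It was called under each of the 29 refits, and ran from -2.22 to -0.89 within the 4 slides. Red blood cell markers fell in the same step, for 3 of 4 tested genes and from a summed 6.07 to 8.61 at NC1 to 3.31 to 5.37 at C1, whereas none of the 5 tested theca and stroma markers was called there. Their part in the Itga7 result was not tested.

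Itga3, the remaining laminin-binding alpha chain, changed by -0.66 ± 0.172 (SE, adjusted p = 0.00368) at C2 against C1 with overlapping arrays. That call was lost without C1 array 2 or 3, without C2 array 1 or 4, and under several other settings, among them leaving out C2 arrays 4 and 5 (adjusted p = 0.026) or C2 arrays 1 to 3 (adjusted p = 0.0108). Its call at C2 against NC1, at -0.61 ± 0.172 (SE, adjusted p = 0.00528) with overlapping arrays, was lost in 14 of 29 refits, both of these included. Itgb4, the partner of alpha 6 in hemidesmosomes, changed by -0.48 ± 0.177 (SE, adjusted p = 0.0275) at C2 against C1 and passed only without C1 array 4, while at C2 against NC1 it was called at -0.73 ± 0.177 (SE, adjusted p = 0.00184). That call was lost with the spike-in scaling (adjusted p = 0.0365) and without C2 arrays 1 to 3 (adjusted p = 0.0563).

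Collagen-binding chains split. Of the 4 tested, Itga2 rose, Itga11 and Itga1 fell, and Itga10 did not pass at C2 against C1, where 47.6% of all tested probes passed. Itga2 read -3.53, -2.56, -2.69, -2.88 and -2.81 in the NC1 arrays, -3.63, -2.84, -3.01, -2.62 and -3.95 in the C1 arrays and -2.20, -1.95, -1.32, -1.10 and -1.17 in the C2 arrays, so that every C2 array lay above the others, with a change of 1.66 ± 0.273 (SE, adjusted p = 6.34e-05). Itga11, a receptor of fibrillar collagen, read 0.05, 0.14, -0.06, -0.22 and -0.06 in the NC1 arrays, -0.08, -0.27, -0.19, -0.58 and 0.02 in the C1 arrays and -1.49, -1.58, -1.82, -1.58 and -1.95 in the C2 arrays. Its C2 arrays lay below all others, and the change was -1.46 ± 0.126 (SE, adjusted p = 5.1e-08).

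Itga1 was less settled. It read -2.46, -2.37, -1.97, -2.45 and -3.24 in the NC1 arrays, -2.27, -2.26, -1.28, -2.29 and -3.59 in the C1 arrays and -3.75, -3.40, -3.19, -3.51 and -3.48 in the C2 arrays. C1 array 5 lay among the C2 arrays, and on the slide that held it C2 was 0.40 above C1, against drops on the other 3 slides. The change was -1.13 ± 0.311 (SE, adjusted p = 0.00517), and the call was lost in 14 of 29 refits, among them leaving out any one of C1 arrays 1 to 4 or of C2 arrays 1, 4 and 5. It was lost without C2 arrays 4 and 5 (adjusted p = 0.0251) and without C2 arrays 1 to 3 (adjusted p = 0.0474). A second Itga1 probe changed by -0.33 ± 0.16 (SE, adjusted p = 0.0917), which was not called.

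Itga9, whose heterodimer with beta 1 binds tenascin C and osteopontin, read -0.44, 0.05, 0.34, 0.08 and 0.35 in the NC1 arrays, -0.36, -0.14, -0.40, -0.27 and -0.15 in the C1 arrays and -1.96, -1.5, -1.10, -1.55 and -1.48 in the C2 arrays. The C2 arrays lay below all others, with a change of -1.25 ± 0.16 (SE, adjusted p = 4.55e-06). Of the leukocyte chains Itgam was tested and changed by -0.22 ± 0.196 (SE, adjusted p = 0.351), which was not called. Itgax was well above background in 2 NC1, 3 C1 and 5 C2 arrays of 5. Its means were -4.61 ± 0.42 (SD, n = 5), -4.46 ± 0.25 and -3.35 ± 0.47. For Itgb7 the counts were 2, 4 and 5 and the means -4.57 ± 0.16, -3.86 ± 0.38 and -3.56 ± 0.56. The Itgb7 arrays of C1 lay above those of NC1 without overlap and overlapped those of C2. Itgax met the limit of 4 of 5 arrays only at C2, and Itgb7 only at C1 and C2, the stages where each was higher. Among the leukocyte markers named above, 3 of 6 tested were higher at C2 than at C1 and 6 of 6 were higher than at NC1. Their part was not tested.

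All 3 nectins passed at C2 against C1, 2 higher and 1 lower, where 47.6% of all tested probes passed. Nectins are immunoglobulin-like proteins that start contacts between cells and bind the scaffold afadin. Pvrl1 read 2.88, 2.60, 3.16, 3.12 and 3.12 in the NC1 arrays, 2.53, 2.69, 2.29, 3.0 and 2.41 in the C1 arrays and -0.73, -0.30, -0.38, -0.57 and -0.38 in the C2 arrays. The C2 arrays lay below every other array, and the change was -3.06 ± 0.146 (SE, adjusted p = 6.01e-11), the largest drop among the tested members. Within the slides it ran from -3.44 to -2.79.

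Pvrl2 rose through both steps on the probe that stood for it. It read 0.49, 0.07, 0.45, 0.81 and 0.70 in the NC1 arrays, 1.80, 1.33, 0.91, 1.40 and 1.54 in the C1 arrays and 3.02, 2.85, 2.54, 2.27 and 2.32 in the C2 arrays. The 3 stages did not overlap, and the changes were 0.89 ± 0.185 (SE, adjusted p = 0.00812) at C1 against NC1 and 1.21 ± 0.185 (SE, adjusted p = 3.13e-05) at C2 against C1. The first call was lost in 17 of 29 refits, including without any one of NC1 arrays 1, 2, 3 and 5, C1 arrays 1, 2, 4 and 5 and C2 arrays 2 and 3. A second probe of the gene read 0.78, 0.17, 0.77, 0.68 and 0.35 in the NC1 arrays, 1.67, 1.37, 1.57, 1.21 and 1.42 in the C1 arrays and 1.65, 1.72, 1.93, 1.28 and 1.39 in the C2 arrays. This probe was called in the first step, at 0.90 ± 0.15 (SE, adjusted p = 0.00127), and not in the second, at 0.14 ± 0.15 (SE, adjusted p = 0.434). Both probes rose by nearly the same amount between juvenile and adult, and the call at C2 against C1 rested on one of them.

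Pvrl3, which pairs with both other nectins across cell contacts, read -0.78, -0.60, -0.77, -0.67 and -0.25 in the NC1 arrays, -0.83, -0.13, -0.99, -0.33 and -0.73 in the C1 arrays and 0.59, 0.34, 0.41, 0.46 and 0.63 in the C2 arrays. All C2 arrays lay above the overlapping NC1 and C1 arrays, with a change of 1.09 ± 0.155 (SE, adjusted p = 1.44e-05). With the spike-in scaling the C2 against C1 calls of Pvrl2 and Pvrl3 were lost, with changes of 1.09 (adjusted p = 0.012) and 0.96 (adjusted p = 0.013).

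**Figure D3:**
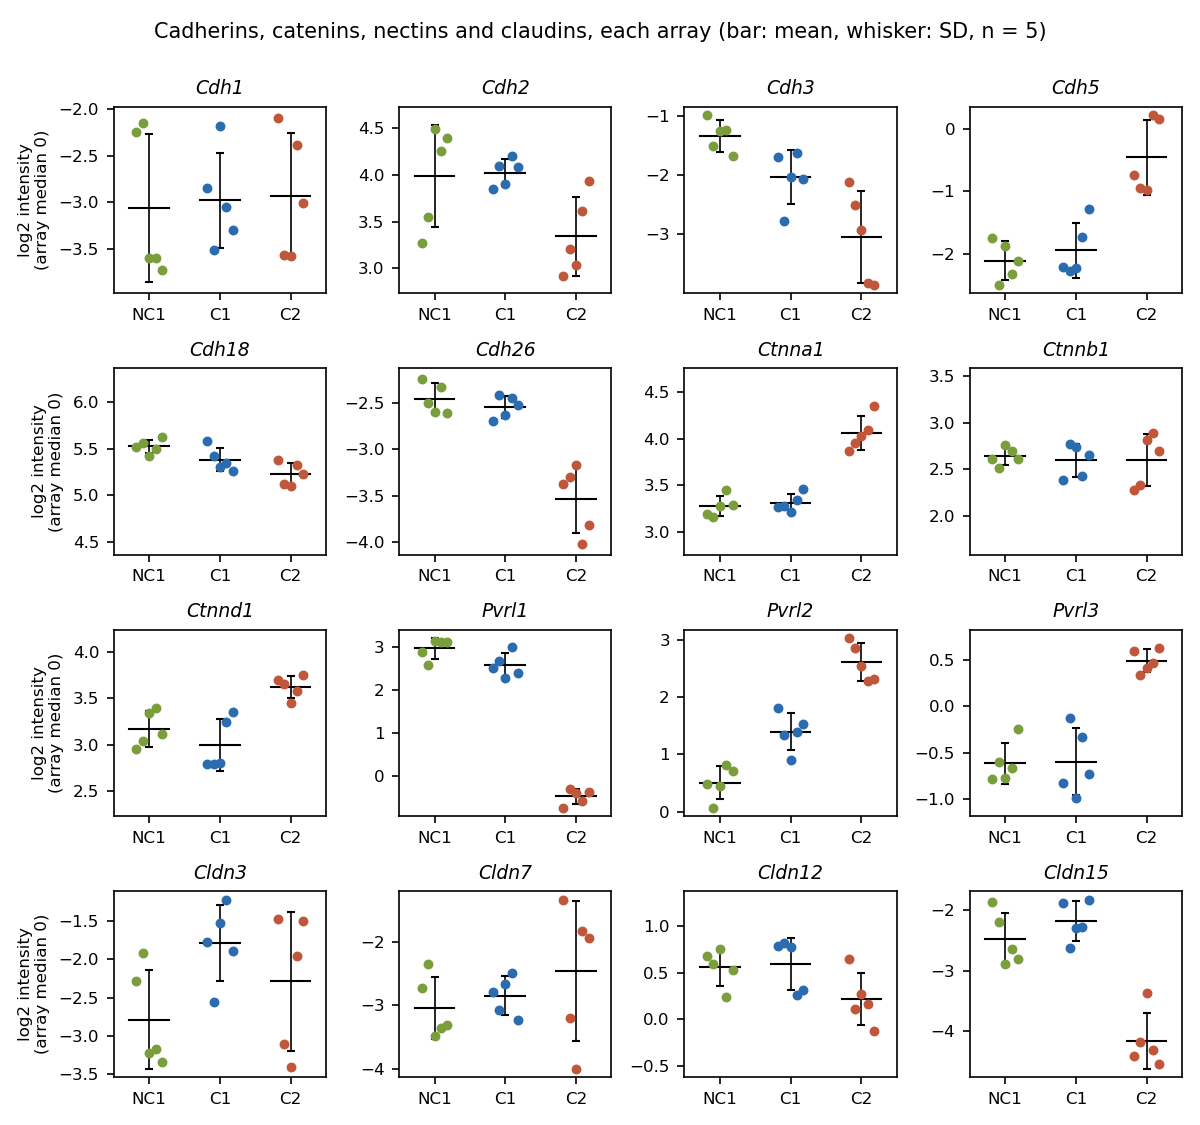
log2 intensity relative to the array median of the 16 tested cadherins, catenins, nectins and claudins on each array, with 1 point per array, a bar for the mean and a whisker for the SD (n = 5); each panel has its own axis. Pvrl1 and Cldn15 are lowest and Pvrl2, Pvrl3, Ctnna1 and Cdh5 highest at C2, and Cdh2, Cdh3, Cdh5 and Cdh26 spread within C2 between arrays 1 to 3 and arrays 4 and 5.

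Of the 6 tested cadherins 3 were called at C2 against C1 (1 higher and 2 lower), where 47.6% of all tested probes were called. Cdh2 (N-cadherin), the cadherin of granulosa cells, read 3.27, 3.55, 4.49, 4.26 and 4.39 in the NC1 arrays, 3.85, 4.09, 3.90, 4.20 and 4.08 in the C1 arrays and 2.92, 3.21, 3.04, 3.61 and 3.94 in the C2 arrays. C2 overlapped both other stages, and the change of -0.68 ± 0.234 (SE, adjusted p = 0.0193) at C2 against C1 was not called. The 2 highest C2 arrays were 4 and 5. Leaving them out gave -0.97 (adjusted p = 0.00345), and leaving out C2 arrays 1 to 3 gave -0.25 (adjusted p = 0.501). The call was also gained without NC1 array 1 or C2 array 5, with quantile normalization, with the replicate number as a block and with only the 2 groups compared. A second Cdh2 probe changed by -0.26 ± 0.247 (SE, adjusted p = 0.376) at C2 against C1. At C2 against NC1 the change of -0.65 ± 0.234 (SE, adjusted p = 0.0233) was not called. It passed in 5 of 29 refits, among them without C2 arrays 4 and 5 (-0.94, adjusted p = 0.00394).

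Cdh1 (E-cadherin), the cadherin of epithelia and of the oocyte surface, read -2.25, -2.14, -3.60, -3.60 and -3.72 in the NC1 arrays, -2.85, -3.51, -2.18, -3.05 and -3.29 in the C1 arrays and -2.10, -3.56, -3.58, -2.39 and -3.0 in the C2 arrays. The stages overlapped throughout, and the change was 0.05 ± 0.372 (SE, adjusted p = 0.92) at C2 against C1. NC1 arrays 1 and 2 were the highest at NC1 for Cdh1, for oocyte markers (5.68 and 5.41 against 3.74 to 4.31) and for oviduct epithelium markers (1.28 and 1.63 against 0.47 or less). They were also the highest there for theca and stroma (5.73 and 5.09 against 3.48 to 3.94) and red blood cell markers (8.23 and 8.61 against 6.07 to 6.64). The same held for leukocyte and platelet markers, but not for endothelial or granulosa markers. C2 arrays 2 and 3 were the lowest at C2 for Cdh1 and for oviduct epithelium markers (0.53 and 0.05 against 2.22 to 3.15), while oocyte markers were at 3.74 and 3.83 there and at -0.56 and -0.35 in C2 arrays 4 and 5. Of the 3 oviduct epithelium markers tested singly, 0 were called higher and 2 lower at C2 against C1. The part of RNA from these cell types in the Cdh1 values was not tested.

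Cdh3 (P-cadherin) read -0.99, -1.51, -1.26, -1.23 and -1.68 in the NC1 arrays, -1.68, -2.77, -2.03, -1.62 and -2.06 in the C1 arrays and -2.12, -2.50, -2.92, -3.82 and -3.85 in the C2 arrays. C2 arrays 4 and 5 were the lowest of all 15. The change was -1.01 ± 0.305 (SE, adjusted p = 0.00928) at C2 against C1, with overlap, and the call was lost in 22 of 29 refits. Without C2 arrays 4 and 5 the change was -0.48 (adjusted p = 0.122) and without C2 arrays 1 to 3 it was -1.80 (adjusted p = 9.47e-05). At C2 against NC1 the drop of -1.71 ± 0.305 (SE, adjusted p = 0.000123) was called in every alternative. Cdh26 read -2.25, -2.50, -2.60, -2.33 and -2.61 in the NC1 arrays, -2.70, -2.41, -2.63, -2.45 and -2.52 in the C1 arrays and -3.38, -3.30, -3.17, -4.02 and -3.82 in the C2 arrays. Its C2 arrays lay below all others, with a change of -0.99 ± 0.149 (SE, adjusted p = 2.47e-05), or -0.74 without C2 arrays 4 and 5 and -1.37 without C2 arrays 1 to 3.

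Cdh5 (VE-cadherin), the cadherin of endothelial junctions, rose at C2. It read -1.75, -2.50, -1.87, -2.33 and -2.12 in the NC1 arrays, -2.22, -2.29, -2.24, -1.73 and -1.28 in the C1 arrays and -0.73, -0.94, -0.98, 0.22 and 0.17 in the C2 arrays. Every C2 array lay above every other array, arrays 4 and 5 most of all, and the change was 1.5 ± 0.264 (SE, adjusted p = 0.000125), or 1.06 (adjusted p = 0.0013) without those arrays. Among endothelial markers Esam changed by -3.27 ± 0.221 (SE, adjusted p = 3.09e-09) and Cd34 by -2.23 ± 0.461 (SE, adjusted p = 0.00055). Kdr changed by 0.09 ± 0.127 (SE, adjusted p = 0.584), which was not called, and Tek, Tie1 and Emcn were not well above background on any C2 array. Of the 9 endothelial markers on the list, 2 were well above background on no NC1 array, 1 on no C1 array and 3 on no C2 array. Of the 3 endothelial markers tested, 2 were lower and none was called higher at C2 than at C1, and the part of endothelial cells in the Cdh5 result was not tested. Cdh18, an array annotation that RefSeq did not match, changed by -0.15 ± 0.092 (SE, adjusted p = 0.17) and was not called.

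Catenins tie cadherins to actin. Ctnna1, the alpha catenin of epithelial junctions, read 3.20, 3.16, 3.28, 3.45 and 3.29 in the NC1 arrays, 3.27, 3.28, 3.21, 3.35 and 3.46 in the C1 arrays and 3.87, 3.95, 4.03, 4.10 and 4.35 in the C2 arrays. The C2 arrays lay above all others, with a change of 0.75 ± 0.101 (SE, adjusted p = 8.6e-06). Ctnnd1 (p120 catenin), which keeps cadherins at the surface, read 2.96, 3.04, 3.34, 3.40 and 3.12 in the NC1 arrays, 2.79, 2.79, 2.80, 3.25 and 3.35 in the C1 arrays and 3.70, 3.65, 3.44, 3.57 and 3.75 in the C2 arrays, with a change of 0.63 ± 0.133 (SE, adjusted p = 0.00067) and no overlap between C1 and C2.

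Ctnnb1 (beta catenin), which also carries Wnt signals to the nucleus, read 2.61, 2.52, 2.76, 2.70 and 2.61 in the NC1 arrays, 2.38, 2.78, 2.74, 2.43 and 2.65 in the C1 arrays and 2.28, 2.34, 2.81, 2.89 and 2.69 in the C2 arrays. Its stages overlapped, and the change was 0.01 ± 0.13 (SE, adjusted p = 0.972) at C2 against C1. With the spike-in scaling the calls of Ctnna1 and Ctnnd1 at C2 against C1 were lost, with changes of 0.62 (adjusted p = 0.1) and 0.51 (adjusted p = 0.238). Ctnnd1 was called at C2 against NC1 too, at 0.45 ± 0.133 (SE, adjusted p = 0.00722). That call was lost in 15 of 29 refits. Among them were both sets of C2 arrays left out in turn, the spike-in scaling, quantile normalization and the slide as a block. Ctnna2, the neural alpha catenin, read -3.13, -3.10, -2.36, -3.01 and -2.79 in the NC1 arrays, -1.91, -1.49, -2.0, -2.04 and -1.82 in the C1 arrays and -6.52, -7.21, -6.44, -5.78 and -6.75 in the C2 arrays. It was well above background in 5 of 5 NC1 and C1 arrays and in 0 of 5 C2 arrays, so that C1 was at least 7.67-fold and NC1 at least 3.77-fold higher than C2. It thus met the background limit only in the stages where it was high. With the normexp background the bounds were 2.15 and 1.36 on the log2 scale, in place of 2.94 and 1.92. The C1 arrays also lay above the NC1 arrays without overlap.

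Claudins were the family with most members near background: 4 of 8 were tested and 1 passed at C2 against C1, where 47.6% of all tested probes passed. Cldn15, a claudin that forms cation pores, read -1.87, -2.20, -2.89, -2.64 and -2.80 in the NC1 arrays, -1.88, -2.63, -2.29, -2.27 and -1.83 in the C1 arrays and -4.40, -4.17, -3.37, -4.31 and -4.54 in the C2 arrays. Its C2 arrays lay below all others, with a change of -1.98 ± 0.235 (SE, adjusted p = 2.03e-06). The probe was well above background in 4 of 5 C2 arrays. Over 29 refits the change ran from -2.24 to -1.25 and stayed called. The epithelial claudins Cldn3 and Cldn7 spread widely at C2, and neither passed. Cldn3 read -1.47, -3.11, -3.41, -1.95 and -1.49 in C2 arrays 1 to 5, and Cldn7 read -1.34, -3.21, -4.00, -1.83 and -1.95. Without C2 arrays 1 to 3 Cldn7 passed at C2 against NC1, at 1.15 (adjusted p = 0.00388). For both, C2 arrays 2 and 3 were the lowest, as they were for the summed oviduct epithelium markers (0.53 and 0.05 against 2.22 to 3.15 in the other C2 arrays). Gene by gene, of the 3 oviduct epithelium markers tested, 0 were called higher and 2 lower at C2 against C1. Against NC1, 1 was called higher at C2 and 0 lower. The part of oviduct cells was not tested. Cldn12 changed by -0.38 ± 0.157 (SE, adjusted p = 0.0479) and was not called.

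Cldn11, the claudin of Sertoli cell and myelin junctions, read -3.79, -4.29, -3.68, -4.32 and -4.60 in the NC1 arrays, -3.35, -4.29, -2.73, -2.89 and -4.08 in the C1 arrays and -4.72, -4.73, -4.47, -4.17 and -4.91 in the C2 arrays, and was well above background in 4, 4 and 2 of 5 arrays. Its stages overlapped and it was not tested. Cldn5, the endothelial claudin, and Cdh15 (M-cadherin) were singled out after their values were seen. Cldn5 averaged -2.18 ± 0.79 (SD, n = 5) in NC1, -1.36 ± 0.40 in C1 and -5.40 ± 0.39 in C2, with 5, 5 and 1 arrays well above background. All its C2 arrays lay below all other arrays. Cdh15 averaged -4.73 ± 0.49 in NC1, -2.21 ± 0.93 in C1 and -3.14 ± 0.61 in C2, with 2, 4 and 5 arrays well above background, and every C1 array lay above every NC1 array. Cldn5 met the limit of 4 of 5 arrays only at NC1 and C1, and Cdh15 only at C1 and C2, the stages where each was higher. Of the others, Cdh13, Cdh16 and Cldn25 were well above background in more NC1 arrays (5 of 5) than C2 arrays (3, 1 and 1), and Cldn4 in 3, 4 and 4 arrays. Cdh13, Cdh16 and Cldn25 thus missed the limit of 4 of 5 arrays at C2, where their means were lowest.

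**Figure D4:**
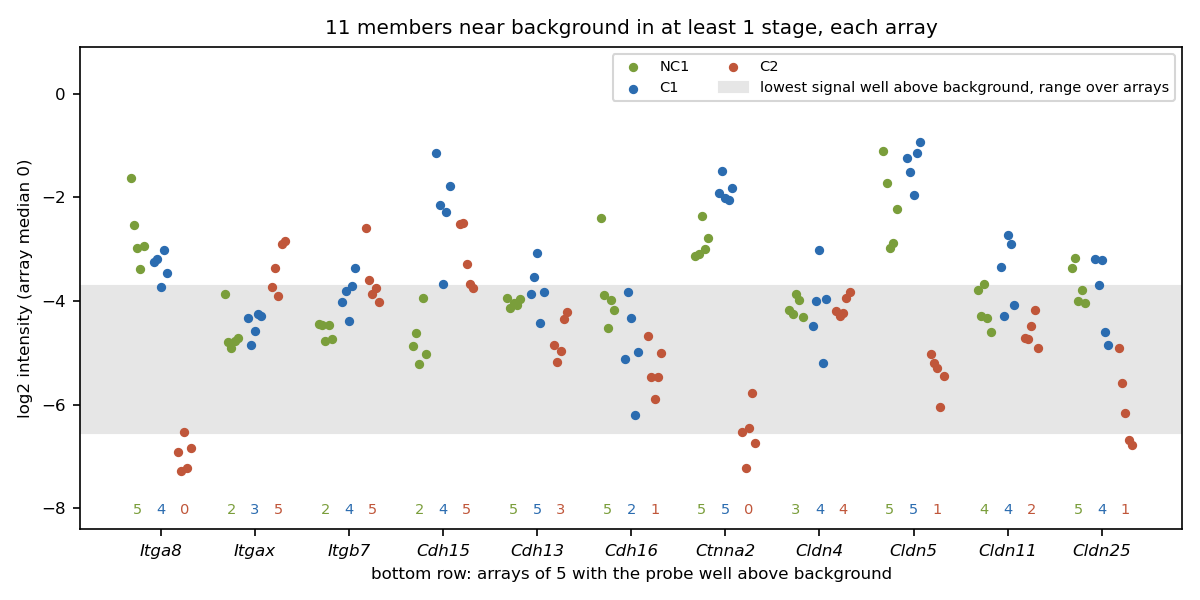
log2 intensity relative to the array median of the 11 members not tested, 1 point per array, with the number of arrays well above background under each stage; the grey band spans, over the 15 arrays, the lowest signal called well above background. Ctnna2, Itga8 and Cldn5 sit in or under the band at C2 and above it at NC1 or C1, and the Cdh15 points are lowest at NC1.

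The partners of these receptors were counted from 5 lists with 75 genes, all of which had a probe. For comparison, 25.4% of all tested probes rose and 22.2% fell at C2 against C1, and 2.52% passed at C1 against NC1. Of 17 integrin ligands 13 were tested, and 6 were higher and 4 lower at C2 than at C1. The largest changes were those of Spp1 (osteopontin) at 7.30 ± 0.265 (SE, adjusted p = 3.62e-12), Fn1 (fibronectin) at 3.16 ± 0.283 (SE, adjusted p = 8.05e-08) and Col4a2 (a chain of basement membrane collagen) at 2.56 ± 0.226 (SE, adjusted p = 6.75e-08). Of 21 integrin adaptors 16 were tested, and 11 were higher and 2 lower. Lims2 at -2.67 and Tln2, a talin, at -2.03 fell, and Actn1 (alpha actinin) rose by 1.92. The median change of the adaptors was 0.97, beside 0.02 over all tested probes. None of the ligands passed at C1 against NC1, and 2 adaptors were lower there (Lims2 at -1.13 and Tns1 at -0.86).

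Junction partners changed both ways at C2 against C1, where 25.4% of all tested probes were higher and 22.2% lower. Of 7 tested adherens junction partners 1 was higher (Iqgap1, 0.80 ± 0.195 (SE, adjusted p = 0.00219)) and 4 were lower, led by Arvcf, a relative of p120 catenin, at -1.45 ± 0.167 (SE, adjusted p = 1.39e-06). Of 11 tested tight junction partners 2 were higher and 5 lower, with Esam at -3.27 and Cgn (cingulin) at -1.68. Of 6 tested desmosome partners 1 was higher and 3 lower, with Perp at -4.05 ± 0.152 (SE, adjusted p = 5.02e-12) and the desmosomal cadherin Dsc2 at -2.31 ± 0.258 (SE, adjusted p = 9.75e-07). Dsc2 had been higher at C1 than at NC1, at 1.67 ± 0.258 (SE, adjusted p = 0.000676). The medians of the 3 junction lists at C2 against C1 were -0.37, -0.14 and -0.54.

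**Figure D5:**
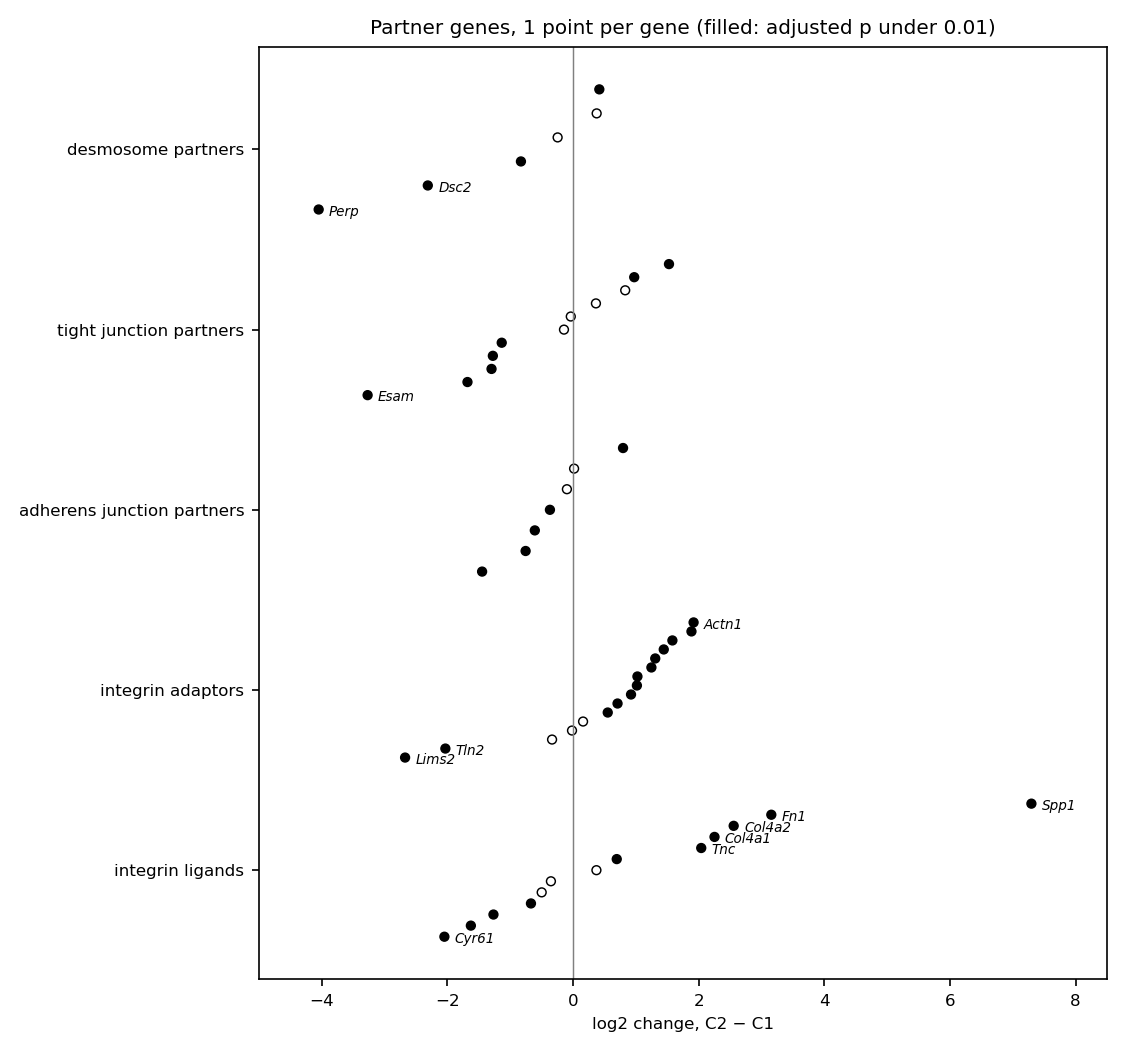
log2 change at C2 against C1 of each tested partner gene (1 point per gene, stacked by size within its list), filled where the adjusted p was under 0.01. Integrin adaptors lie mostly right of 0 (11 of 16 higher), Spp1 stands alone at 7.30, and Perp lies farthest left at -4.05.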

How the data were processed

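RNA of 15 samples was read on 1-colour Agilent arrays, 5 for each of NC1, C1 and C2. The deposited scanner files hold processed intensity values, background-corrected by Agilent Feature Extraction (version 10.5.1.1 per the labels, 10.7.1.1 per the file headers). The authors also deposited a log2 table of 20855 gene probes, which was used as an alternative only. Control spots and flagged spots were left out, spots of a probe were averaged, and log2 intensity was centred on the array median over the 17323 of 39429 gene probes well above background in at least 80% (4 of 5) of the arrays of each stage. No gene spot was saturated. Probes well above background numbered 18366 to 24493 per array, and the number of arrays limits the precision.

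The 3 stages were fitted in 1 model with limma 3.58.1 (R 4.3.3), with two-sided moderated tests and Benjamini-Hochberg adjustment over all 17323 probes at 0.01. The fit was tested on simulated data. Python 3.11.15, pandas 2.3.3 and numpy 2.4.6 were used for the summaries. Replicates are separate pools of mice as the study's methods describe them. Members, gene lists and motifs were chosen with earlier results of these data known.

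Values on every array were given for members called at C1 against NC1, for the 16 largest called changes at C2 against C1, for Itgb1, Itgav, Itga6, Cdh1, Cdh2, Ctnna1, Ctnnb1, Ctnnd1, Cldn11 and Pvrl2, and for members well above background in all arrays of one stage and none of another. Up to 3 called partners per list were named. The value of 1 partner gene is not reported here. Alternatives changed scaling, background (normexp with an offset of 50 on the median signals, the mean signal not being used here), filter, threshold, probe, blocks and arrays. Bounds ("at least") compare the mean of the brighter stage with the lowest signal well above background on each dimmer array. RefSeq matched the accession of 39 of the 42 members; Cdh18, Cldn25 and Itga10 keep the name of the array annotation.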

Additional observations from a re-analysis of the deposited data

Results flagged for a closer look

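Among 126 groups of 5 arrays (42 members in 3 stages), 2 held an array whose gap to its nearest neighbour was large against the range of the group, where chance gives about 1 in 20 groups. Itga5 read -2.19 in C1 array 4, against -2.87 to -2.71 in the other C1 arrays. Itgax read -3.87 in NC1 array 1, against -4.90 to -4.71 in the other NC1 arrays.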

How the results depend on the processing

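Of 93 comparisons of a tested member, 68 kept their call under each of their 31 or 32 alternatives, and none reversed. At C1 against NC1 the count of 2 members became 1 with the median over all gene probes, the spike-in scaling, the authors' table, the replicate block, the slide as a block, only the 2 groups compared, or a 2-fold minimum, and 4 at an adjusted p under 0.05. Leaving out one array at a time gave 1 to 2 members there, 15 to 19 at C2 against C1, 17 to 20 at C2 against NC1 and 18 to 21 over the 3 stages. At C2 against C1 the spike-in scaling gave 12 members in place of 19. The cause was not tested. Replicate numbers were not used as pairs in the main fit. The 15 correlations of same-numbered arrays ran from -0.24 to 0.35, and 4 of 15 pairs were best with their own number. Those were replicates 2, 4 and 5 of NC1 with C1 (0.35, 0.34 and 0.34) and replicate 3 of C1 with C2 (0.21). With the replicate block the counts were 1, 20, 21 and 22 in the order above, with Cdh2 gained at C2 against C1, and with the slide as a block 1, 17, 18 and 18. Both settings on C2 arrays were chosen after seeing the data. Without C2 arrays 4 and 5 the counts were 2, 16, 18 and 18, and without C2 arrays 1 to 3 they were 2, 17, 17 and 17. Scaling on all gene probes moved the median of all tested probes to 0.33 at C2 against C1. Members under the background limit were not tested, and bounds were given only for Itga8 and Ctnna2.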
